A study of Mus musculus with 45 samples.

Results

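Oxidative phosphorylation genes were taken from the deposited table of gene counts by symbol. The rule kept symbols that begin with mt-Nd, mt-Co, mt-Atp, mt-Cytb, Ndufa, Ndufb, Ndufc, Ndufs, Ndufv, Uqcr, Cox4 to Cox8 or Atp5, together with Sdha, Sdhb, Sdhc and Sdhd. It gave 107 of the 19966 genes in the table, after 2 pseudogenes marked "-ps" were left out. Of the 107 genes, 13 are encoded by mitochondrial DNA and 94 by the nucleus. The nuclear genes comprise 38 of complex I, 8 complex I assembly factors (Ndufaf1 to Ndufaf8), 4 of complex II, 8 of complex III, 19 of complex IV and 17 of complex V, with Ndufa4 and Ndufa4l2 placed in complex IV. The mitochondrial genes comprise 7 of complex I, 1 of complex III, 3 of complex IV and 2 of complex V. The rule used no measured value.

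Poly(A) RNA of mouse liver was sequenced in 45 libraries from mice labelled Uhrf1hepKO (KO), a name that denotes loss of Uhrf1 in hepatocytes, and from mice labelled WT, wild type, all C57Bl/6, 8 to 12 weeks old and on a normal diet. UHRF1 is a chromatin protein needed to copy DNA methylation when cells replicate. Livers were collected after partial hepatectomy, in which part of the liver is removed and the remaining lobes regrow, at 24, 30, 40, 48 and 96 h, 7 days and 4 weeks, and at baseline. There were 16 groups, 13 of them with 3 libraries and the other 3 (KO at 7 days and WT at 30 and 48 h) with 2. The promoter that drives Cre in the KO mice is not given in the sources used here, and the labels do not say whether the libraries of a group came from separate animals. The deposited names of the baseline libraries carry the time 40 h with a letter b. Whether they came from the animals of 40 h is not given, and the tests treat them as unpaired.

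Oxidative phosphorylation is the final stage of respiration in the inner mitochondrial membrane. Complexes I and II pass electrons from NADH and succinate to coenzyme Q, complex III passes them to cytochrome c and complex IV to oxygen, while the protons moved on the way drive ATP synthesis by complex V. Complex II is built wholly from nuclear genes, whereas the other complexes combine nuclear subunits with a few made inside the mitochondrion from its own DNA. Hepatocytes are rich in mitochondria, which also serve fatty acid oxidation, the urea cycle and gluconeogenesis in these cells.

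Libraries held 12.85 to 23.13 M (mega) counts in all, and 102 of the 107 genes passed the filter on low counts, 89 nuclear and all 13 mitochondrial. The 5 genes that did not pass are described with the tissue isoforms. Hepatocyte markers were detected in every group (8 of 8). In bulk liver, fewer cells of a type and less RNA per cell cannot be told apart. Uhrf1 itself had 3.59 to 8.95 CPM (counts per M of library counts) in KO livers against 27.5 to 107 CPM in WT livers at 40 h. Its ranges overlapped at baseline, with 0 to 0.247 CPM in KO and 0.219 to 0.644 CPM in WT livers. They also overlapped at 7 days and between the labels at 96 h. At 96 h the libraries labelled WT went against their label in Bglap3 and Rhox5, genes that separated KO from WT libraries at all other conditions. They had 9.38 to 28.4 CPM of Bglap3 and 2.86 to 9.58 CPM of Rhox5, against 8.83 to 29.4 and 4.14 to 12.0 CPM in the libraries labelled KO at 96 h. At the other conditions KO libraries had 3.18 to 17.4 CPM of Bglap3 and 1.91 to 17.1 CPM of Rhox5, and WT libraries 0.112 to 1.53 and 0 to 0.59 CPM. Values at 96 h are therefore given by label only, and counts of changed genes are also given from a fit without these libraries. Levels in CPM were scaled by TMM factors, and a gene is called higher or lower where edgeR's quasi-likelihood test gave an adjusted p (Benjamini-Hochberg, over the 14090 genes that passed the filter) under 0.05. Fold changes are log2 values with their SE.

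The mitochondrial messages were not counted alike, and this bears on every value of 5 of them. Mouse chromosome 1 carries a stretch of near-identical mitochondrial DNA, annotated as the pseudogenes Gm10925, Gm28661, Gm28437, Gm28438 and Gm10222, which copy mt-Atp6, mt-Co2, mt-Co3, mt-Nd3 and mt-Nd4l. Over their aligned bases the copies were identical except that of mt-Nd3, with 99.71% identity and the substitution T3C, counted from the start of the gene (mitochondrial base first). The first 100 bases of mt-Nd3 and mt-Co2 (GRCm38, 5′ to 3′ of the coding strand) stand below with those of their copies, to show how little a read can tell them apart. Capitals mark the substituted base, and the mt-Co2 pair has none.
mt-Nd3, chrM:9459-9558, plus strand: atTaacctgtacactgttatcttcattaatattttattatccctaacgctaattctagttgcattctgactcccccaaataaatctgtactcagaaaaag
Gm28438, chr1:24613020-24613119, minus strand: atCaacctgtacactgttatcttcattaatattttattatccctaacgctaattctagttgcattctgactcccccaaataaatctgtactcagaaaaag
mt-Co2, chrM:7013-7112, plus strand: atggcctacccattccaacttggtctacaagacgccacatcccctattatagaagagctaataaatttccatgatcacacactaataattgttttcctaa
Gm28661, chr1:24615466-24615565, minus strand: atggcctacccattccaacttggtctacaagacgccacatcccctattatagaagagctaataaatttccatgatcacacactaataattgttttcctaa

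The counts of these 5 genes were low beside the deposited FPKM values, which are fragments per kilobase of transcript and M of fragments. mt-Co2, a catalytic-core subunit of complex IV, had a median of 168 counts per library (92 to 369) and mt-Atp6, the proton-channel subunit of complex V, 288 (157 to 684). Their copies Gm28661 and Gm10925 had medians of 97 and 75 counts. mt-Co3 had a median of 115 counts, mt-Nd3 of 153 and mt-Nd4l of 10. In counts per kilobase and M of library counts, mt-Co2 came to 14.8 against 7410 FPKM, and mt-Atp6 to 27.9 against 8290 FPKM. For mt-Co1, whose 100-base windows recur elsewhere in 30.8% of cases, the same comparison gave 13600 against 15500 FPKM. The windows of the 5 genes recurred elsewhere in 97.6 to 99.9% of cases. Among the nuclear genes, Ndufb2 stood out with 0.78 counts per kilobase and M against 135 FPKM, and all windows of Ndufb4c recur in Ndufb4. Fold changes of these 5 mitochondrial genes and of Ndufb2 therefore rest on counts that are few beside their FPKM. Reads of Ndufb4c cannot be told from those of Ndufb4 by such windows. How the counting treated reads that match more than 1 place is not given in the sources used here. The other 8 mitochondrial genes are also given apart from the 5. These 8 are not all free of copies. The stretch spans chr1:24611535-24616197, which corresponds to chrM:6381-11043, and its pseudogenes Gm29216 and Gm28439 also copy 492 of the 1545 bases of mt-Co1 and 877 of the 1378 bases of mt-Nd4. All 204 bases of mt-Atp8 lie within the span, 43 of them in the annotated copy of mt-Atp6, and the chromosome 1 sequence of the rest was not used here. mt-Atp8 came to 2430 counts per kilobase and M against 20100 FPKM. The 5 genes wholly outside the stretch are mt-Nd1, mt-Nd2, mt-Nd5, mt-Nd6 and mt-Cytb.

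**Figure D1:**
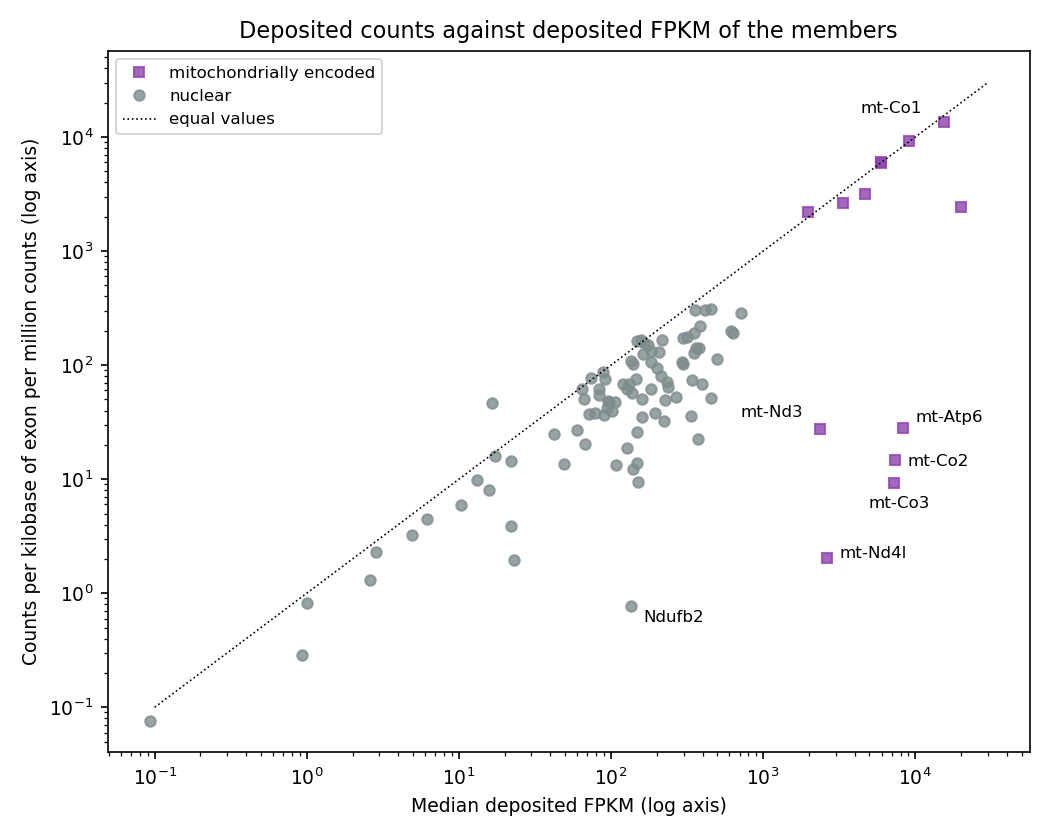
Counts per kilobase and M of library counts (vertical, log scale) against deposited FPKM (horizontal, log scale) for the oxidative phosphorylation genes, medians over the libraries. mt-Atp6, mt-Co2, mt-Co3, mt-Nd3 and mt-Nd4l lie far below the other genes, for example mt-Co2 with 14.8 counts per kilobase and M at 7410 FPKM, as does the nuclear gene Ndufb2, and mt-Atp8 lies below the line of equal values by less.

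Compared per length in FPKM, the mitochondrial messages were the most abundant of the set. The median over the libraries was 20076 FPKM for mt-Atp8 (a short complex V subunit), 15510 for mt-Co1 (the catalytic subunit of complex IV, listed at 0 in 1 library) and 9044 for mt-Cytb (cytochrome b of complex III). The first place of mt-Atp8 holds in FPKM only. In counts per kilobase and M it came to 2430, below mt-Co1 with 13600 and mt-Cytb with 9290. mt-Atp6, mt-Co2 and mt-Co3 were listed at 8294, 7411 and 7208 FPKM, and their chromosome 1 copies Gm10925, Gm28661 and Gm28437 at 8320, 7450 and 7220 FPKM. Of the complex I subunits, mt-Nd1, mt-Nd2 and mt-Nd4 had 5975, 5925 and 4690 FPKM, and mt-Nd6, mt-Nd4l, mt-Nd3 and mt-Nd5 had 3359, 2624, 2367 and 1981 FPKM. The copies of mt-Nd3 and mt-Nd4l, Gm28438 and Gm10222, were listed at 2360 and 2630 FPKM. How FPKM divided reads between a gene and its copy is not given in the sources used here. The place of the genes with such copies in this order is therefore uncertain. The nuclear genes of highest mean were Atp5b (744 FPKM, the catalytic beta subunit of ATP synthase), Ndufa4 (662 FPKM) and Atp5g3 (618 FPKM, a gene for the proton-carrying subunit c). The lowest that passed the filter were Cox7a1 (2.89 FPKM), Cox6b2 (2.51 FPKM) and Ndufa4l2 (1.06 FPKM). Cox4i1 has no row of its own in the FPKM table.

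The 13 mitochondrial genes took several times as many counts as the 94 nuclear genes in every group. Over all libraries their share ran from 4.03 to 8.82% of the counts and that of the nuclear genes from 0.941 to 1.44%. At baseline they held 5.43 to 5.69% of all counts in KO livers, against 5.91 to 6.82% in WT livers, and these ranges did not overlap. The nuclear genes held 1.2 to 1.27% in KO and 1.23 to 1.33% in WT livers at baseline, with overlapping ranges. The ratio of mitochondrial to nuclear counts averaged 4.53 in KO and 4.94 in WT livers at baseline. mt-Atp6, mt-Co2, mt-Co3, mt-Nd3 and mt-Nd4l added little to these shares. Their mean counts per library were 319, 180, 123, 161 and 11.9, against 360428 for mt-Co1. The mitochondrial shares and ratios, here and below, are thus nearly those of the other mitochondrial genes. As the counts of these named copied genes are few beside their FPKM, the values may understate all 13 genes. By how much was not tested.

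The mitochondrial share in KO livers was 4.03 to 4.68% at 24 h, 4.91 to 5.35% at 30 h, 5.05 to 5.26% at 40 h and 4.87 to 5.55% at 48 h. In WT livers it was 4.42 to 5.03%, 4.19 to 4.79%, 5.02 to 5.51% and 4.91 to 4.93% at the same times. Every library of either genotype at 24 h lay below the libraries of its own baseline. At 7 days the share was 5.18 to 5.75% in KO and 4.86 to 5.85% in WT livers, and at 4 weeks 5.57 to 6.22% in KO and 5.9 to 6.32% in WT livers. The highest shares of all groups were those of the libraries labelled KO and WT at 96 h, with 7.17 to 7.86% and 7.68 to 8.82%. The ratio of mitochondrial to nuclear counts averaged 5.87 and 5.79 in these libraries and lay between 4.1 and 4.94 in all other groups. These are shares of the total, and the total itself shifted: at 96 h Alb averaged 16.7% of counts under the KO label and 10% under the WT label, against 6.83 and 6.81% at the baseline of each genotype. With the 10 most counted nuclear genes left out, the mitochondrial share at 96 h was 10.4% under the KO label and 10.1% under the WT label, against 6.59 and 7.64% at baseline.

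The same order appeared gene by gene. For each library the difference of every gene from its WT baseline mean was taken on the log2 CPM scale, and the median over the nuclear and over the mitochondrial genes was computed. In KO livers at 24 h the mitochondrial medians were -0.92, -0.78 and -0.69 and the nuclear medians of the same libraries -0.54, -0.22 and -0.32. In WT livers at 24 h the mitochondrial medians were -0.50, -0.62 and -0.69 and the nuclear medians -0.40, -0.25 and -0.51. The mitochondrial median was thus the lower in each of the 6 libraries. It was also the lower in every library of KO livers at baseline and at 30, 40 and 48 h. The same held in WT livers at 30 h and in both genotypes at 7 days and 4 weeks. In libraries labelled KO at 96 h the mitochondrial medians were 1.09, 0.62 and 0.39 and the nuclear medians 0.76, 0.26 and 0.18, and in those labelled WT 0.71, 0.48 and 0.23 against 0.47, 0.44 and 0.17. Here the mitochondrial median was the higher in each library. The pooled SD of these medians within groups was 0.143 for either set, which is not the SD of the gap between the sets. The gap exceeded 0.143 in 5 of the 6 libraries at 24 h and in 3 of 3 libraries labelled KO at 96 h. Under the WT label at 96 h it did so in 1 of 3, with gaps of 0.24, 0.04 and 0.05. It also did so in every library of KO livers at 30 and 48 h and of WT livers at 30 h, 48 h and 7 days. At baseline it did so in 2 of 3 KO libraries and in 0 of 3 WT libraries. KO livers already differed from the WT baseline mean at their own baseline, with mitochondrial medians of -0.37, -0.47 and -0.35 and nuclear medians of -0.16, -0.28 and -0.23.

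**Figure D2:**
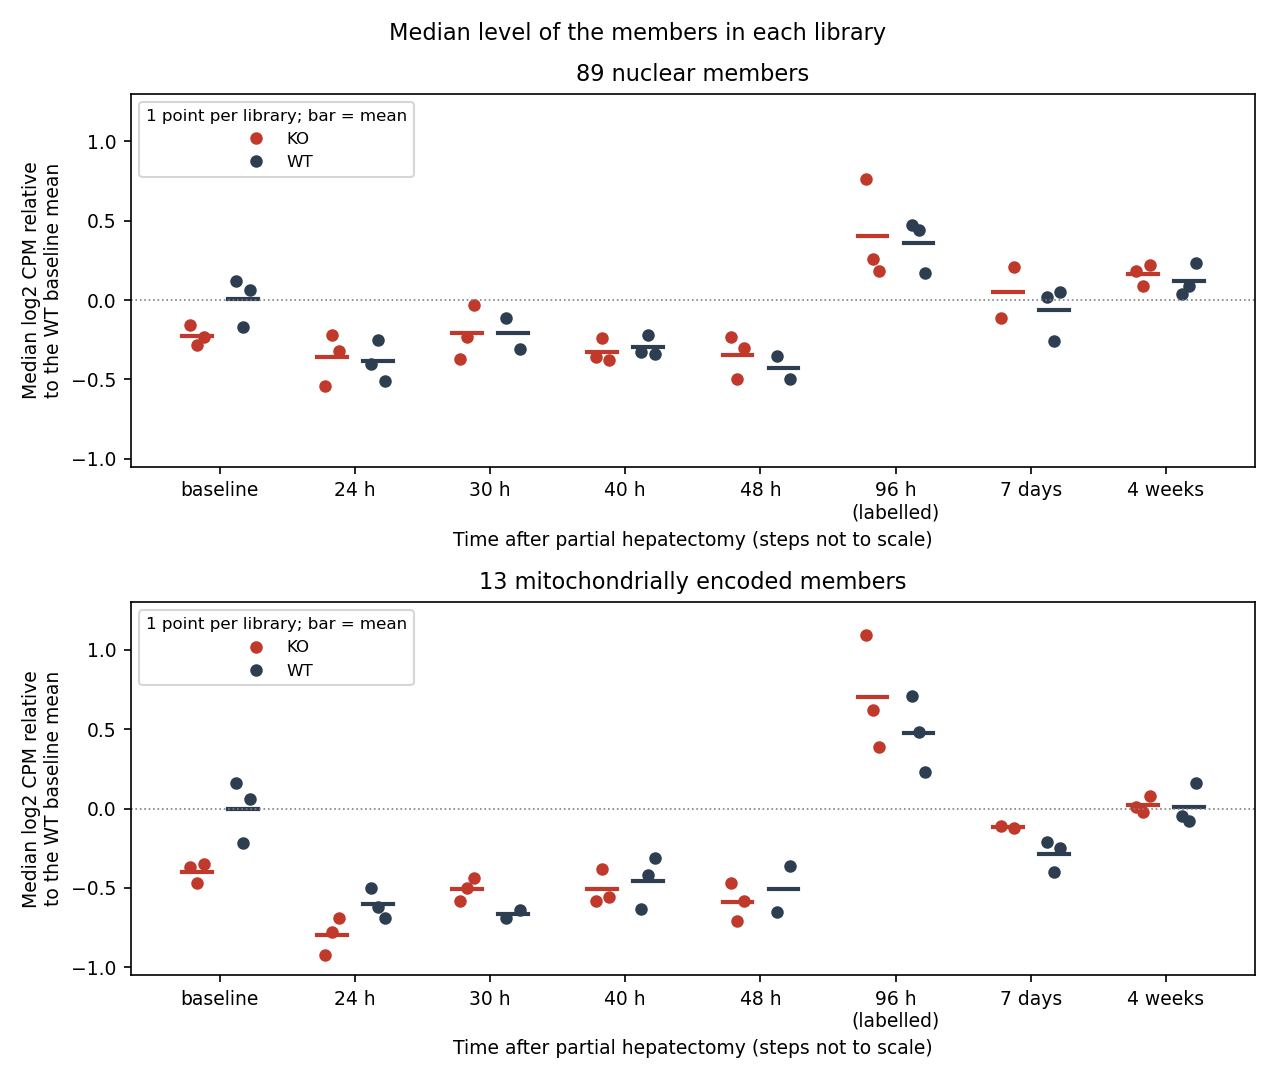
Median log2 difference from the WT baseline mean over nuclear and over mitochondrial oxidative phosphorylation genes in each library (points), by genotype and time, KO left of WT. Both sets lie below 0 at 24 to 48 h, down to -0.92 for the mitochondrial genes in KO at 24 h, and above 0 in the libraries labelled 96 h, where the highest KO library reached 1.09 for the mitochondrial genes.

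No gene of the set was called between KO and WT livers at baseline, where 0.0852% of all genes tested were called. Still, 2 of 89 nuclear and 0 of 13 mitochondrial genes had a fold change above 0, and the medians were -0.23 for nuclear and -0.41 for mitochondrial genes on the log2 scale, beside a median near 0 over all genes. The libraries did not overlap, with KO below WT, for 33 nuclear and 12 mitochondrial genes, where 7.07% of all genes tested did so. For none was KO wholly above WT, where 6.56% of all genes were. At an unadjusted p under 0.05 stood 18 nuclear and 7 mitochondrial genes, and 997 of all genes. DESeq2 on the same counts also called none of the set. Scaled by total counts in place of TMM, which moves the median over all genes by 0.129, the medians at baseline were -0.09 and -0.27. The median and the counts of the set carry no test of their own. The summed Kupffer cell markers (6 of 6 detected) were 147 to 208 CPM in KO and 88.4 to 137 CPM in WT livers at baseline, without overlap. Endothelial markers (141 to 152 CPM in KO and 113 to 136 CPM in WT livers), lymphocyte markers (1.42 to 3.04 and 0.535 to 1.02 CPM) and neutrophil and monocyte markers (6.24 to 6.40 and 4.02 to 5.50 CPM) did not overlap either. Their part in the gap was not tested.

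Single genes show the size of that gap. mt-Co1 had 22195, 21993 and 20575 CPM in KO livers against 27670, 22862 and 25981 CPM in WT livers at baseline. The KO libraries were all below the WT libraries. mt-Nd6, the only mitochondrial protein gene encoded on the light strand, had 1453, 1460 and 1473 CPM in KO livers against 2029, 1754 and 2340 CPM in WT livers, again without overlap (log2 fold change -0.48 ± 0.15, adjusted p = 0.3881, edgeR). Uqcrc1, a core subunit of complex III, had 284, 265 and 263 CPM in KO livers against 319, 302 and 342 CPM in WT livers (-0.25 ± 0.09, adjusted p = 0.5364, edgeR).

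At the other conditions the medians lay nearer to 0. No gene of the set was called at 24, 30, 40 or 48 h, 7 days or 4 weeks, where 0.0426, 0.937, 0.142, 0.135, 0.135 and 0.22% of all genes were called in that order. At an unadjusted p under 0.05 there were 0, 1, 1, 3, 2 and 1 nuclear and 0, 3, 0, 1, 0 and 0 mitochondrial genes at these conditions. Of all 14090 genes tested there were 473, 1512, 787, 702, 773 and 679. DESeq2 called none of the set either. The median fold changes of KO against WT over the nuclear genes were 0.03, 0.02, -0.05, 0.08, 0.11 and 0.06, and over the mitochondrial genes -0.18, 0.11, -0.04, -0.03, 0.10 and 0.03. Above 0 were 54, 52, 17, 76, 82 and 71 of 89 nuclear and 0, 11, 5, 5, 11 and 7 of 13 mitochondrial genes. Of all 14090 genes tested 6985, 7224, 6212, 7566, 7081 and 6859 were above 0. The nuclear genes thus leaned to 1 side at 40 and 48 h, 7 days and 4 weeks as well as at baseline. Scaled by total counts, the mitochondrial median at 48 h changed sign, to 0.07. Between the libraries labelled KO and WT at 96 h 3 genes were called, Cox6b2 (2.56 ± 0.66) and mt-Nd3 (0.61 ± 0.21) higher and Sdha (-0.26 ± 0.09) lower, where 14.3% of all genes were called. The medians were 0.10 and 0.20, and scaled by total counts, which moves the median over all genes by -0.182, they were -0.13 and -0.021. With that scaling 1 nuclear gene was higher and 12 nuclear and 1 mitochondrial gene lower, and a fit on the 96 h libraries alone called 0. Without a single library of this time the number ran between 1, without WT replicate 2, and 18, without KO replicate 3.

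After surgery most nuclear genes that were called in WT livers were lower than at baseline. At 24 h 45 of 89 nuclear and 10 of 13 mitochondrial genes were lower and 1 nuclear gene was higher, where 11.9% of all genes were called lower and 10.5% higher. The median fold changes were -0.39 and -0.68. At 30 h 14 nuclear and 11 mitochondrial genes were lower and 0 higher (8.35 and 9.33% of all genes). At 40 h 29 nuclear and 8 mitochondrial genes were lower and 2 nuclear genes higher (17.3 and 19.2%), and at 48 h 48 nuclear and 8 mitochondrial genes were lower and 3 nuclear genes higher (15.4 and 15.6%). The medians at 30, 40 and 48 h were -0.22, -0.29 and -0.44 for nuclear and -0.61, -0.45 and -0.51 for mitochondrial genes. These comparisons share the WT baseline libraries. With the 96 h libraries left out of the fit, 52, 17, 37 and 57 nuclear and 10, 11, 9 and 8 mitochondrial genes were lower at the 4 times.

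The WT counts leaned on single libraries. The 56 genes called at 24 h became 29 without WT 24 h replicate 3, 32 without WT 24 h replicate 1, 32 without WT baseline replicate 1 and 37 without WT baseline replicate 3. The 25 at 30 h became 8 and 13 without WT 30 h replicates 3 and 2, and 16 without WT baseline replicate 3. The 59 at 48 h became 30 and 35 without WT 48 h replicates 3 and 2, and 35 without WT baseline replicate 1. Scaled by total counts, 34 genes were called at 48 h. In limma on log2(FPKM + 1), 6 nuclear genes were higher and 12 nuclear and 1 mitochondrial gene lower at 40 h, and 4 nuclear genes higher and 18 nuclear and 4 mitochondrial genes lower at 48 h.

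At 24 and 48 h genes of every complex were called lower in WT livers, where 11.9 and 15.4% of all genes were. At 24 h 18 of 37 nuclear complex I genes, 2 of 8 assembly factors, 4 of 4 complex II genes, 4 of 8 complex III genes, 8 of 15 complex IV genes and 9 of 17 complex V genes were lower. Their medians ran from -0.28 for the assembly factors to -0.47 for complex II. At 48 h the counts were 20, 2, 3, 5, 9 and 9 in the same order, with medians of -0.47, -0.13, -0.61, -0.49, -0.42 and -0.40. At that time 2 assembly factors and 1 complex IV gene were higher, where 15.6% of all genes were. At 30 h only 1 of 15 complex IV and 2 of 17 complex V genes were lower, beside 8.35% of all genes. Ndufv1, the NADH-binding subunit of complex I, fell by 0.58 on the log2 scale at 24 h and by 0.54 at 48 h. Ndufs1, the largest iron-sulfur subunit of complex I, fell by 0.54 and 0.47. Cox5a of complex IV fell by 0.60 at 24 h and 0.37 at 48 h, Cox4i1 by 0.34 and 0.49, and Atp5b by 0.41 and 0.34. Atp5a1, the alpha subunit of ATP synthase, fell by 0.44 and 0.58, and Uqcrfs1, the Rieske iron-sulfur protein of complex III, by 0.46 and 0.42.

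In KO livers fewer genes were called at the same times. At 24 h 12 nuclear and 4 mitochondrial genes were lower and 1 nuclear gene was higher (12.2 and 11.5% of all genes), with medians of -0.12 and -0.41. At 30 h 8 nuclear genes were lower and 8 higher, and 2 mitochondrial genes were lower (16.1 and 17.0%). At 40 h 10 nuclear genes were lower and 3 higher and no mitochondrial gene was called (17.7 and 17.9%). At 48 h 15 nuclear and 1 mitochondrial gene were lower and 5 nuclear genes were higher (17.0 and 19.0%). The medians at 30, 40 and 48 h were 0.02, -0.11 and -0.13 for nuclear and -0.04, -0.17 and -0.19 for mitochondrial genes, and scaled by total counts the nuclear median at 48 h was 0.01. The balance of calls at 48 h depended on the scaling: total counts, which move the median over all genes by 0.143, gave 10 nuclear genes higher and 6 lower, and limma on log2(FPKM + 1) 12 higher and 3 lower, with 0 mitochondrial genes called in either. With the 96 h libraries left out of the fit, 19, 9, 14 and 20 nuclear genes were lower and 2, 11, 3 and 5 higher, and 6, 2, 0 and 3 mitochondrial genes were lower. The 17 genes called at 24 h became 27 in that fit, 27 under scaling by total counts and 11 without KO baseline replicate 1. The 18 at 30 h became 11 without KO baseline replicate 3 or KO 30 h replicate 2 or 3, and the 21 at 48 h became 13 without KO 48 h replicate 2.

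The genes called lower in KO livers were, except 1 at 48 h, also called lower in WT livers, each genotype being set against its own baseline. At 24 h all 16 genes lower in KO were lower in WT, which is 100% of the KO list and 29.1% of the 55 in WT. They were Ndufa9, Ndufb8, Ndufc2, Ndufv1, Sdha, Sdhb, Uqcrc1, Cox5a, Cox7a2l, Atp5a1, Atp5c1, Atp5s, mt-Atp6, mt-Atp8, mt-Co1 and mt-Co3. At 30 h the 10 genes lower in KO were 40.0% of the 25 in WT, at 40 h the 10 in KO were 27.0% of the 37 in WT, and at 48 h 15 of the 16 in KO (93.8%) were 26.8% of the 56 in WT. How far the calls of the genotypes were shared over all genes was not computed, so this sharing is not shown to be particular to the set.

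Whether the change with time differed between the genotypes was tested directly as an interaction. No gene of the set passed at 24, 30, 40 or 48 h, 7 days or 4 weeks, where 0, 0.0355, 0, 0, 0 and 0.0071% of all genes passed. At an unadjusted p under 0.05 there were 9, 11, 2, 14, 17 and 10 nuclear and 0, 7, 2, 1, 5 and 4 mitochondrial genes. Of all 14090 genes tested there were 456, 1223, 360, 869, 1126 and 879. DESeq2 called none of the set at these times. So the higher number of calls in WT livers is not shown to be a difference between the genotypes for any single gene. The medians of the interaction at 24, 30, 40 and 48 h were 0.25, 0.25, 0.19 and 0.30 for nuclear and 0.17, 0.52, 0.36 and 0.40 for mitochondrial genes, and 88, 84, 82 and 84 of 89 nuclear genes were above 0. Over all 14090 genes tested, 7091, 7278, 6652 and 7569 were above 0. All of these interactions contain the same KO and WT baseline libraries, whose gap was described above. A joint test over the 6 times other than 96 h also passed no gene of the set (0.0426% of all genes), nor did that with 96 h included (1.41%). In the test without 96 h, 2 nuclear and 2 mitochondrial genes had an unadjusted p under 0.05, as had 798 of all 14090 genes tested, and DESeq2 called none of the set. The 5 genes of the set with the smallest p-values in it were mt-Co2, mt-Atp6, Ndufb4c, Ndufaf2 and Ndufa10, with edgeR adjusted p-values from 0.5997 (mt-Co2) to 0.8755 (Ndufa10).

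**Figure D3:**
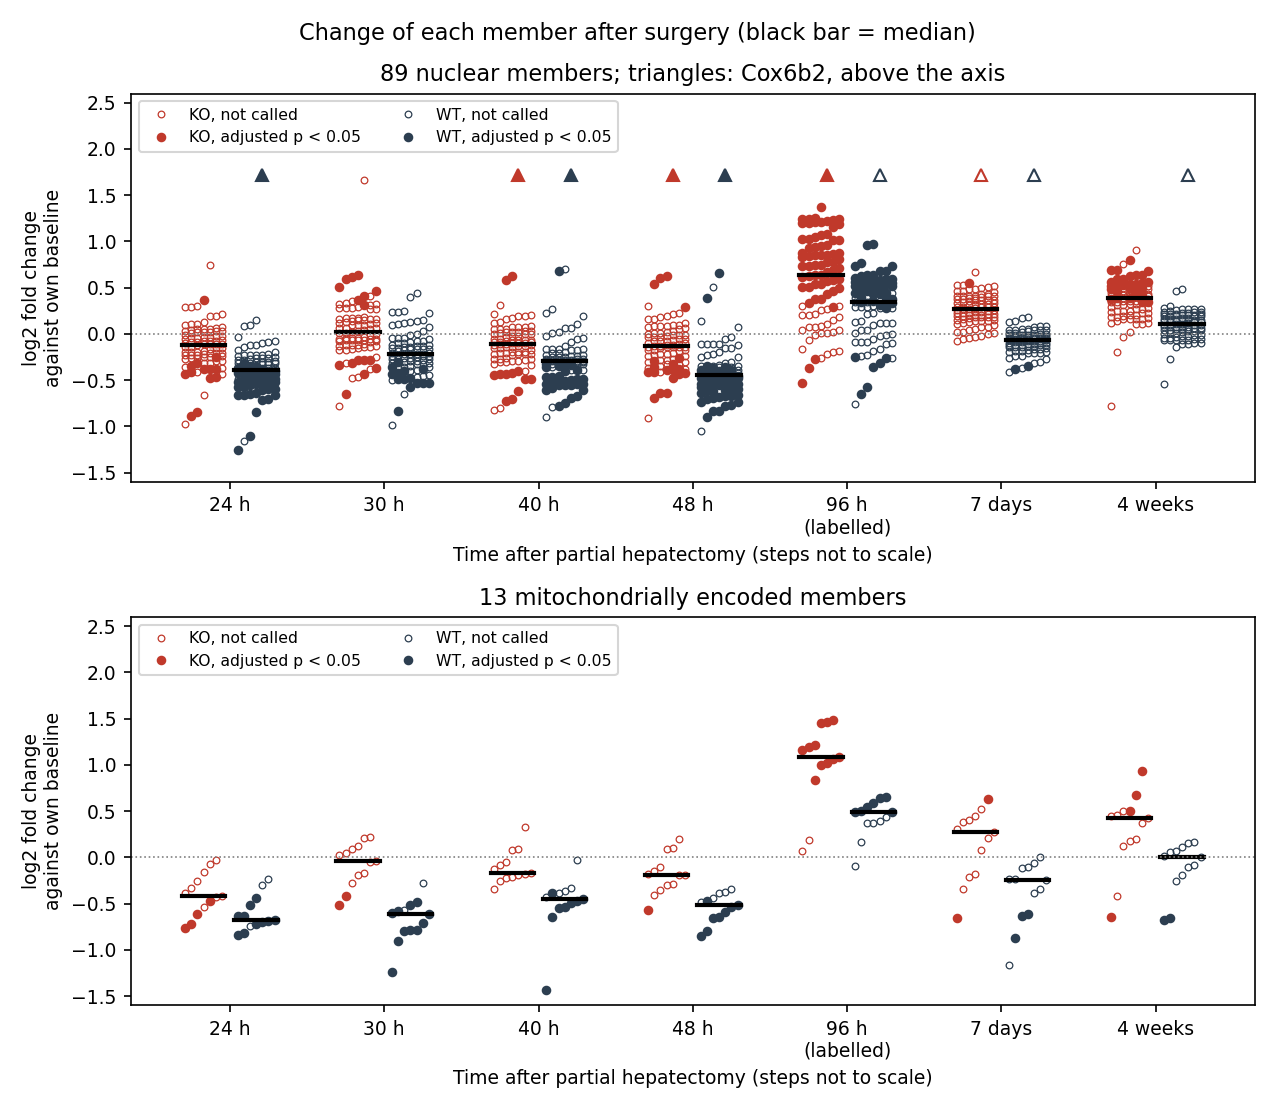
Log2 fold changes against the genotype's own baseline for each oxidative phosphorylation gene at each of the 7 times, in KO and in WT livers, nuclear and mitochondrial genes apart; filled points were called, and triangles mark Cox6b2 beyond the axis. At 24 h the WT medians were -0.39 (nuclear) and -0.68 (mitochondrial) and the KO medians -0.12 and -0.41, and in the libraries labelled 96 h the medians lie above 0 under both labels.

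Markers of other cells moved at the same time. Of 6 neutrophil and monocyte markers 5 were in the table, and their summed level was 3001 to 3566 CPM in KO and 2791 to 3442 CPM in WT livers at 24 h, against 6.24 to 6.40 CPM in KO and 4.02 to 5.50 CPM in WT livers at baseline. Nearly all of that sum was Lcn2, which hepatocytes also make after injury. The defining markers were low in all libraries, with at most 11.2 CPM of S100a8 and 15.3 CPM of S100a9, and S100a8 was at 0 in WT livers at baseline. The summed hepatocyte markers were 69001 to 82604 CPM in KO and 72618 to 85277 CPM in WT livers at 24 h, against 87955 to 95590 CPM in KO and 90766 to 108143 CPM in WT livers at baseline. Most of the hepatocyte sum was Alb, with 41549 to 300980 CPM over all libraries. The other hepatocyte markers reached at most 17620 CPM (Fgb). The part of these markers in the fall of the respiratory genes was not tested.

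Among the nuclear genes the largest fall that was called at all of 24, 30, 40 and 48 h in both genotypes was that of Sdhb, the iron-sulfur subunit of complex II. Sdhb had 97.0, 125 and 126 CPM in KO livers at 24 h against 227, 202 and 213 CPM in KO livers at baseline. It had 114, 128 and 98.4 CPM in WT livers at 24 h against 245, 223 and 264 CPM in WT livers at baseline. In both genotypes the libraries at 24 h lay far below those at baseline, and KO and WT overlapped at 24 h. The log2 fold changes in KO livers were -0.89 ± 0.12 at 24 h (adjusted p = 1.555e-06, edgeR), -0.65 at 30 h, -0.62 at 40 h and -0.64 at 48 h. In WT livers they were -1.11 ± 0.12 at 24 h (adjusted p = 4.894e-08, edgeR), -0.84 at 30 h, -0.78 at 40 h and -0.90 at 48 h. At 4 weeks Sdhb had 256, 240 and 264 CPM in KO and 243, 230 and 251 CPM in WT livers and was not called.

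Sdha, the flavin-bearing catalytic subunit of complex II, moved with it. Sdha had 379, 379 and 410 CPM in KO livers at 24 h against 499, 539 and 519 CPM at baseline, and 403, 409 and 391 CPM in WT livers at 24 h against 526, 547 and 651 CPM at baseline. The time groups did not overlap in either genotype. Its log2 fold changes at 24, 30, 40 and 48 h were -0.41, -0.43, -0.43 and -0.41 in KO and -0.52, -0.49, -0.52 and -0.68 in WT livers, all of them called. Of the membrane anchors, Sdhc fell by 0.31, 0.36 and 0.54 in WT livers at 24, 40 and 48 h, and Sdhd by 0.42 in WT livers at 24 h.

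Uqcrc1 behaved alike in complex III. It had 189, 224 and 212 CPM in KO livers at 24 h against 284, 265 and 263 CPM at baseline, and 211, 210 and 191 CPM in WT livers at 24 h against 319, 302 and 342 CPM at baseline. Its fold changes at 24, 30, 40 and 48 h were -0.38, -0.28, -0.40 and -0.42 in KO and -0.65, -0.57, -0.54 and -0.70 in WT livers, all called. Its partner Uqcrc2 fell by 0.51, 0.48, 0.40 and 0.62 in WT livers at these times, and by 0.37 and 0.41 in KO livers at 30 and 48 h. Ndufb8, an accessory subunit of complex I, was called at all 4 times in both genotypes, with -0.48, -0.33, -0.45 and -0.39 in KO and -0.70, -0.53, -0.51 and -0.66 in WT livers. Ndufa6, another accessory subunit, fell by 0.73 and 0.69 in KO livers at 40 and 48 h and by 0.49, 0.75 and 0.83 in WT livers at 24, 40 and 48 h. Ndufv3 fell by 0.48 and 0.43 in KO livers at 40 and 48 h and by 0.35, 0.67 and 0.69 in WT livers at 24, 40 and 48 h, and Ndufs7 by 0.49 in KO livers at 40 h. Atp5s, a factor linked to ATP synthase coupling, fell by 0.84, 0.70 and 0.64 in KO livers at 24, 40 and 48 h and by 0.85 and 0.55 in WT livers at 24 and 40 h.

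**Figure D4:**
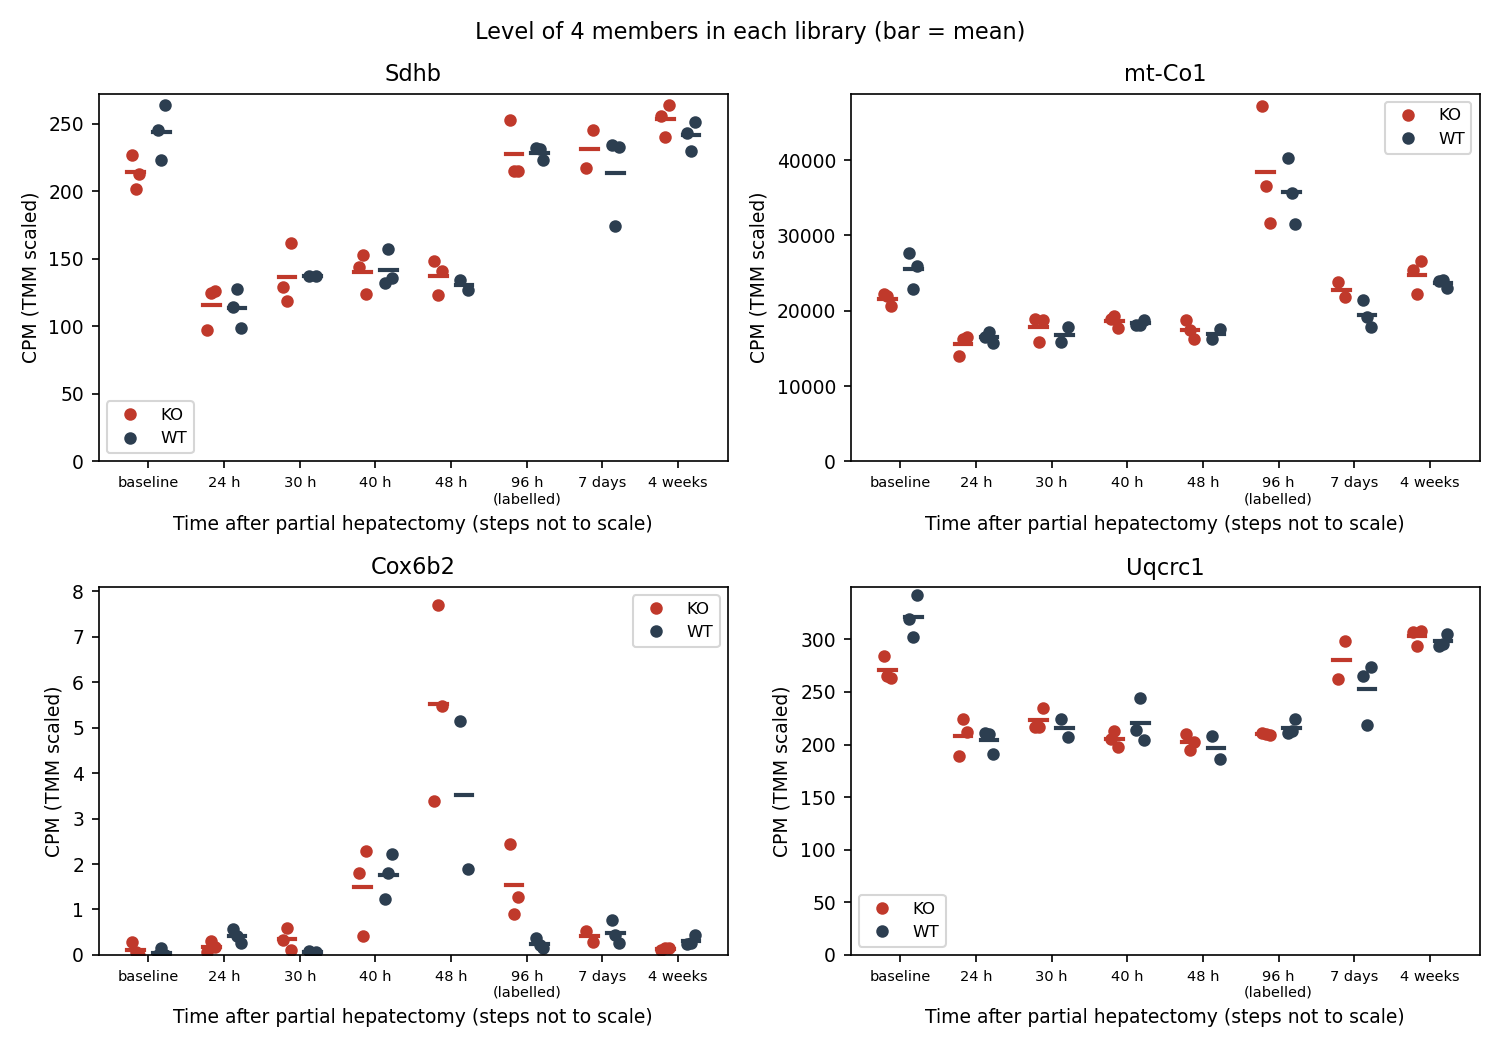
CPM per library of Sdhb, mt-Co1, Cox6b2 and Uqcrc1 across the 8 conditions, KO left of WT, with points for libraries and bars for group means. Sdhb and Uqcrc1 are low from 24 to 48 h, mt-Co1 is low at 24 h and highest in the libraries labelled 96 h, and Cox6b2 passes 1 CPM only in libraries of 40 and 48 h and in those labelled KO at 96 h.

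Promoters of the 4 nuclear genes called lower at all of 24, 30, 40 and 48 h in both genotypes are shown to set their start sites side by side, together with that of Cox6b2, which rose. RefSeq promoter sequences (GRCm38.p6, 250 bases before to 50 after the start) matched 75 of the 94 nuclear genes. They were searched on both strands for the NRF1 motif (its matches are the capitals in the Sdha and Uqcrc1 windows), CCGGAAG (the ETS family, to which GABPA belongs) and AAGATGGC (YY1), the last of which can overlap an ETS match in the letters AAG. Capitals mark the matches.
Sdhb, chr4:140961021-140961320, plus strand: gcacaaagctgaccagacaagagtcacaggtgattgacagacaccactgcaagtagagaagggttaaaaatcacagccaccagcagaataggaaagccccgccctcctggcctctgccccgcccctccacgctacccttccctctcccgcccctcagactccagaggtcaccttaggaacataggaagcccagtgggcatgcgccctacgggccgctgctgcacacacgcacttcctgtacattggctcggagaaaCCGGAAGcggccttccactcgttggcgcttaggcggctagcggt
Sdha, chr13:74350191-74350490, minus strand: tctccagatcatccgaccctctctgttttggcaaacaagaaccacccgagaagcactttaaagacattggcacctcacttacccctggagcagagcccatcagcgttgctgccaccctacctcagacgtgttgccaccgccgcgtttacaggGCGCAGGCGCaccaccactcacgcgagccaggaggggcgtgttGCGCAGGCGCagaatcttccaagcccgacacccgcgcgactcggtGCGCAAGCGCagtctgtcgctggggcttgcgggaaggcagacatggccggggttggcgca
Uqcrc1, chr9:108936398-108936697, plus strand: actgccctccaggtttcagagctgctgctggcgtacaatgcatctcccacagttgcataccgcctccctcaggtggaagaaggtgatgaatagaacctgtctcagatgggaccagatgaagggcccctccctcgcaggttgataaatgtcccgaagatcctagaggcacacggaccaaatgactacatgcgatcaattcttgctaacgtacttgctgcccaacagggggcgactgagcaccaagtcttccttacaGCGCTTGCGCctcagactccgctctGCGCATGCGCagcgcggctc
Ndufb8, chr19:44555393-44555692, minus strand: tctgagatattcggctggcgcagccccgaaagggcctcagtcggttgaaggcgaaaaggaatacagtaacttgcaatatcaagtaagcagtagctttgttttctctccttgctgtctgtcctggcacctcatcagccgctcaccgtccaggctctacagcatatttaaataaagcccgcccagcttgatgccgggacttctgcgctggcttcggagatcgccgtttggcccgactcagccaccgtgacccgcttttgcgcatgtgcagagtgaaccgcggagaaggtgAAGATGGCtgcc
Cox6b2, chr7:4753045-4753344, minus strand: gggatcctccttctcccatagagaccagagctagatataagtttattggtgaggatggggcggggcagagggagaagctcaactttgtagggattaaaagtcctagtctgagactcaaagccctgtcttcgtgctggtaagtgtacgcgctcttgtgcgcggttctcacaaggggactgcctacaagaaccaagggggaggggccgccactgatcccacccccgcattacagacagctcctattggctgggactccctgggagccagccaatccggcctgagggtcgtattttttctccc

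The Sdha window holds 3 NRF1 matches and the Uqcrc1 window 2, while the Sdhb window holds 1 ETS match, the Ndufb8 window 1 YY1 match and the Cox6b2 window none of the 3 motifs. Over the set, 18 of 75 promoters held NRF1 (24.0%, against 4.78% of 27025 promoters), 17 held ETS (22.7% against 9.12%) and 10 held YY1 (13.3% against 2.88%). The promoters of the set were also richer in the letter pair CG, with a median of 20 against 7 over 32851 promoters. The shares were not matched for CG, and its part in them was not tested. A match describes letters in this window and is not a shown binding site.

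A few genes of the set were called higher at these times. Cox6b2, a complex IV subunit known from testis, had 80, 175 and 107 counts in the KO libraries at 48 h against 4, 1 and 0 counts at baseline, and 104 and 34 counts in the WT libraries at 48 h against 0, 2 and 0 counts at baseline. In CPM these were 3.39, 7.71 and 5.48 in KO and 5.14 and 1.9 in WT livers at 48 h. At 40 h Cox6b2 had 1.8, 0.41 and 2.29 CPM in KO and 1.24, 1.81 and 2.23 CPM in WT livers. The libraries at 40 and 48 h lay above all baseline libraries, and the genotypes overlapped. Over the group sums, the level at 48 h was 54.8 times that at baseline in KO (exact 95% counting interval 23.3 to 170) and 73.8 times in WT livers (20.1 to 616). These intervals cover counting error only, and the WT baseline holds 2 counts in all. Cox6b2 was called at 40 h and 48 h in both genotypes (adjusted p = 2.28e-08 in KO and 6.654e-07 in WT at 48 h, edgeR) and in WT livers at 24 h (adjusted p = 0.03975), where it had 0.567, 0.427 and 0.271 CPM. It was among the lowest messages of the set, with 0 to 24.4 FPKM over the libraries.

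The other genes called higher in KO livers at one or more of 24 to 48 h were 5 complex I assembly factors, which build the complex without being part of it (Ndufaf2, Ndufaf3, Ndufaf5, Ndufaf6 and Ndufaf7), and Ndufa8, Ndufab1, Ndufc1, Cox7a2 and Atp5g1. In WT livers they were Ndufaf2 and Ndufaf5. Ndufaf5 had 7.25, 6.83 and 7.43 CPM in KO livers at 48 h against 4.99, 4.94 and 4.02 CPM at baseline, and 8.5 and 6.38 CPM in WT livers at 48 h against 4.6, 4.72 and 4.81 CPM at baseline. The groups at 48 h lay above their baselines. Ndufaf5 rose by 0.59, 0.63 and 0.63 on the log2 scale in KO livers at 30, 40 and 48 h and by 0.68 and 0.66 in WT livers at 40 and 48 h. Ndufaf2 rose by 0.46, 0.59 and 0.60 in KO livers at these 3 times and by 0.39 in WT livers at 48 h. Of the exon bases of Ndufaf2, 65.6% overlap a long noncoding RNA on the opposite strand (B230220B15Rik), and the strand setting of the counting is not given in the sources used here, so reads of the pair cannot be told apart. In KO livers at 48 h 4 of 8 assembly factors were higher, with Ndufaf3 (0.54) and Ndufaf7 (0.29) beside these, and Ndufaf4 was lower (-0.47). In KO livers at 30 h Ndufaf6 (0.61) and Ndufa8 (0.64), an intermembrane-space subunit of complex I, were higher. Ndufaf1 went the other way in WT livers and fell by 0.40, 0.49, 0.69 and 0.84 at 24, 30, 40 and 48 h.

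The subunit c of ATP synthase, which forms the rotating ring, comes from 3 genes, whose changes were not tested against each other. Atp5g1 rose in KO livers by 0.37 at 24 h (adjusted p = 0.038, edgeR) and by 0.51 at 30 h (adjusted p = 0.003407, edgeR). Atp5g2 and Atp5g3 were not called at these times in either genotype. Atp5g1 was not called in WT livers at any time, and its interaction did not pass either.

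Most mitochondrial genes fell in WT livers at 24 to 48 h. mt-Co1 had 16576, 17193 and 15714 CPM in WT livers at 24 h against 27670, 22862 and 25981 CPM at baseline (log2 fold change -0.63, adjusted p = 0.0004148, edgeR). In KO livers at 24 h it had 13989, 16296 and 16463 CPM against 22195, 21993 and 20575 CPM at baseline (-0.47, adjusted p = 0.006727, edgeR). The groups did not overlap within a genotype. At 30, 40 and 48 h mt-Co1 fell by 0.60, 0.48 and 0.59 in WT livers, and it was not called in KO livers at these times. mt-Nd4 fell by 0.72, 0.71, 0.64 and 0.65 in WT livers at 24, 30, 40 and 48 h and mt-Cytb by 0.44, 0.51, 0.45 and 0.48. mt-Nd2 fell by 0.49, 0.38 and 0.51 in WT livers at 30, 40 and 48 h. mt-Nd1, the first protein gene in the order of the heavy-strand transcript, was not called at 24 to 48 h in either genotype.

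Among the genes with chromosome 1 copies, mt-Atp6 fell by 0.72 in KO livers and 0.82 in WT livers at 24 h, and by 0.91, 0.55 and 0.65 in WT livers at 30, 40 and 48 h. mt-Co3 fell by 0.76 in KO and 0.84 in WT livers at 24 h and by 0.78 in WT livers at 30 h. mt-Co2 fell by 0.68, 0.80 and 0.53 in WT livers at 24, 30 and 40 h. mt-Nd3 fell by 0.63 in WT livers at 24 h, and mt-Nd4l by 1.24 and 1.44 in WT livers at 30 and 40 h, on a median of 10 counts per library. mt-Atp8, inside the span of the stretch but without an annotated copy of its own, fell by 0.61 and 0.42 in KO livers at 24 and 30 h and by 0.69, 0.79 and 0.54 in WT livers at 24, 30 and 48 h. Of the 8 genes not among these 5, mt-Atp8 included, 2, 2, 0 and 1 were lower in KO and 6, 7, 5 and 7 in WT livers at 24, 30, 40 and 48 h, and of the 5 with copies 2, 0, 0 and 0 in KO and 4, 4, 3 and 1 in WT livers. The medians at 24 h were -0.37 in KO and -0.57 in WT livers for the 8, and -0.53 in KO and -0.74 in WT livers for the 5. Of the 5 genes wholly outside the stretch, 0, 1, 0 and 1 were lower in KO and 3, 4, 3 and 4 in WT livers at the 4 times, with medians at 24 h of -0.16 in KO and -0.44 in WT livers. Over all genes tested 12.2, 16.1, 17.7 and 17.0% were lower in KO and 11.9, 8.35, 17.3 and 15.4% in WT livers. Several of the KO counts are near these shares.

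In the libraries labelled 96 h most genes of the set were higher than at baseline. In those labelled KO 61 nuclear and 11 mitochondrial genes were higher and 3 nuclear genes lower (21.9 and 22.1% of all genes higher and lower), with medians of 0.64 and 1.08. In those labelled WT 42 nuclear and 7 mitochondrial genes were higher and 6 nuclear genes lower (12.8 and 14.6%), with medians of 0.34 and 0.49. Scaled by total counts, the KO medians were 0.21 and 0.65, while the median over all genes moved by -0.39, and 41 nuclear genes were higher and 17 lower under the KO label. In limma on log2(FPKM + 1) these numbers were 50 and 10. In the libraries labelled KO the numbers called ran from 66 to 80 without single libraries. In those labelled WT the 55 became 18 without WT 96 h replicate 1, 31 without WT 96 h replicate 2 and 19 without WT baseline replicate 2. The 48 genes higher under both labels were 66.7% of the KO list and 98.0% of the WT list. Such sharing was not computed over all genes.

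By complex, 26 of 37 nuclear complex I genes, 4 of 8 assembly factors, 1 of 4 complex II genes, 7 of 8 complex III genes, 11 of 15 complex IV genes and 12 of 17 complex V genes were higher in libraries labelled KO at 96 h, and 17, 3, 0, 7, 8 and 7 in those labelled WT. The medians of complex II were -0.09 under the KO label and -0.13 under the WT label, beside 0.40 to 0.86 and 0.29 to 0.48 for the others, and Sdhd (0.73 under the KO label) was its gene that rose. Ndufa4 had 916, 488 and 442 CPM in libraries labelled KO against 275, 238 and 266 CPM in KO livers at baseline, and 540, 506 and 396 CPM in those labelled WT against 349, 287 and 330 CPM in WT livers at baseline. KO replicate 1 was far above the other libraries, and no library at 96 h overlapped its baseline. Ndufa4 rose by 1.25 under the KO label (adjusted p = 6.892e-07, edgeR) and by 0.58 under the WT label (adjusted p = 0.01201, edgeR). Uqcrb of complex III rose by 1.21 and 0.63, and the complex IV subunits Cox7a2 by 1.20 and 0.64 and Cox7b by 1.19 and 0.73, under the KO and WT labels. Ndufa12 rose by 0.76 under the WT label and Ndufa6 by 0.85 and 0.73 under the KO and WT labels.

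Core subunits were among the few that fell at 96 h. Uqcrc1 had 211, 210 and 209 CPM in libraries labelled KO and 211, 213 and 224 CPM in those labelled WT, all below every baseline library, and fell by 0.37 and 0.57. Ndufa10, a complex I subunit, had 79.8, 83.2 and 87.4 CPM in those labelled KO and 91.8, 86.8 and 104 CPM in those labelled WT, against 127, 119 and 116 CPM in KO and 153, 134 and 156 CPM in WT livers at baseline. It fell by 0.53 and 0.65. Sdha fell by 0.28 under the KO label, and Cox4i1, Sdhc, Ndufv1 and Atp5a1 fell by 0.35, 0.32, 0.25 and 0.26 under the WT label.

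The mitochondrial genes rose under both labels at 96 h with few exceptions. mt-Co1 had 47189, 36514 and 31700 CPM in libraries labelled KO and 40255, 35664 and 31566 CPM in those labelled WT, against 22195, 21993 and 20575 CPM in KO and 27670, 22862 and 25981 CPM in WT livers at baseline. No library at 96 h overlapped a baseline library. mt-Co1 rose by 0.83 and 0.49, mt-Nd1 by 1.20 and 0.55 and mt-Nd2 by 1.00 and 0.49 under the KO and WT labels. mt-Atp8 rose by 1.08 and 0.66, mt-Atp6 by 1.16 and 0.59 and mt-Co3 by 1.22 and 0.64. mt-Nd4, mt-Cytb, mt-Nd3 and mt-Nd4l rose by 1.07, 1.02, 1.46 and 1.49 under the KO label and were not called under the WT label. mt-Nd5 and mt-Nd6 were not called under either label, mt-Nd5 with 0.07 and 0.16 under the KO and WT labels. Of the 5 genes wholly outside the chromosome 1 stretch 3 rose under the KO and 2 under the WT label, with medians of 1.00 and 0.37. Over all genes tested 21.9 and 12.8% were higher under these labels. In FPKM, where mt-Co1 is listed at 0 in WT 96 h replicate 1, its fold change under the WT label was below 0 and not called.

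A direct test of whether the change at 96 h differed between the labels passed 1 gene of the set, mt-Co2, where 2.91% of all genes passed. mt-Co2 had 27.4, 24 and 16.6 CPM in libraries labelled KO at 96 h against 7.39, 7.97 and 9.11 CPM in KO livers at baseline, and 19.2, 17.2 and 13.7 CPM in those labelled WT against 13.1, 9.94 and 12.1 CPM in WT livers at baseline. It rose by 1.47 ± 0.17 under the KO label and by 0.51 under the WT label, and the interaction was 0.96 ± 0.24 (adjusted p = 0.02479, edgeR). The KO and WT baselines did not overlap, whereas the libraries at 96 h did. No gene of the set passed in any of the 3 fits on FPKM. This number of genes was 0 to 21 without single libraries, the most without KO 96 h replicate 3, and 0 without KO baseline replicate 1 or 2, WT baseline replicate 1, KO 96 h replicate 1 or 2, or WT 96 h replicate 3. The counts of mt-Co2 share sequence with Gm28661, as described above.

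Short messages rose more at 96 h than long ones, inside and outside the set. Length was taken as the median over a gene's annotated coding transcripts. Of 88 nuclear genes with a length, the 64 under 1000 bases had a median of 0.76 under the KO label (46 higher, 1 lower) and the 24 longer ones 0.42 (14 higher, 2 lower). Under the WT label the medians were 0.42 (34 higher, 3 lower) and 0.29 (7 higher, 3 lower). Across these genes, which are not independent replicates, the rank correlation of fold change with length was -0.392 under the KO and -0.351 under the WT label. Over all genes it was -0.305 under the KO label, where genes under 1000 bases had a median of 0.26 and 38.6% of them were higher, against -0.06 and 18.9% for longer genes. In WT livers at 24 to 48 h the rank correlation within the set lay between -0.111 and 0.0325. The part of transcript length in the rise at 96 h was not tested. Markers moved there too: the summed hepatocyte markers were 204077 to 347350 CPM in libraries labelled KO and 104055 to 173233 CPM in those labelled WT, and the Kupffer cell markers 342 to 582 and 183 to 261 CPM, against 147 to 208 CPM in KO and 88.4 to 137 CPM in WT livers at baseline. The hepatocyte sum was again mostly Alb, which reached 300980 CPM, while no other hepatocyte marker passed 17620 CPM in any library. The part of the marker sums in the rise was not tested.

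**Figure D5:**
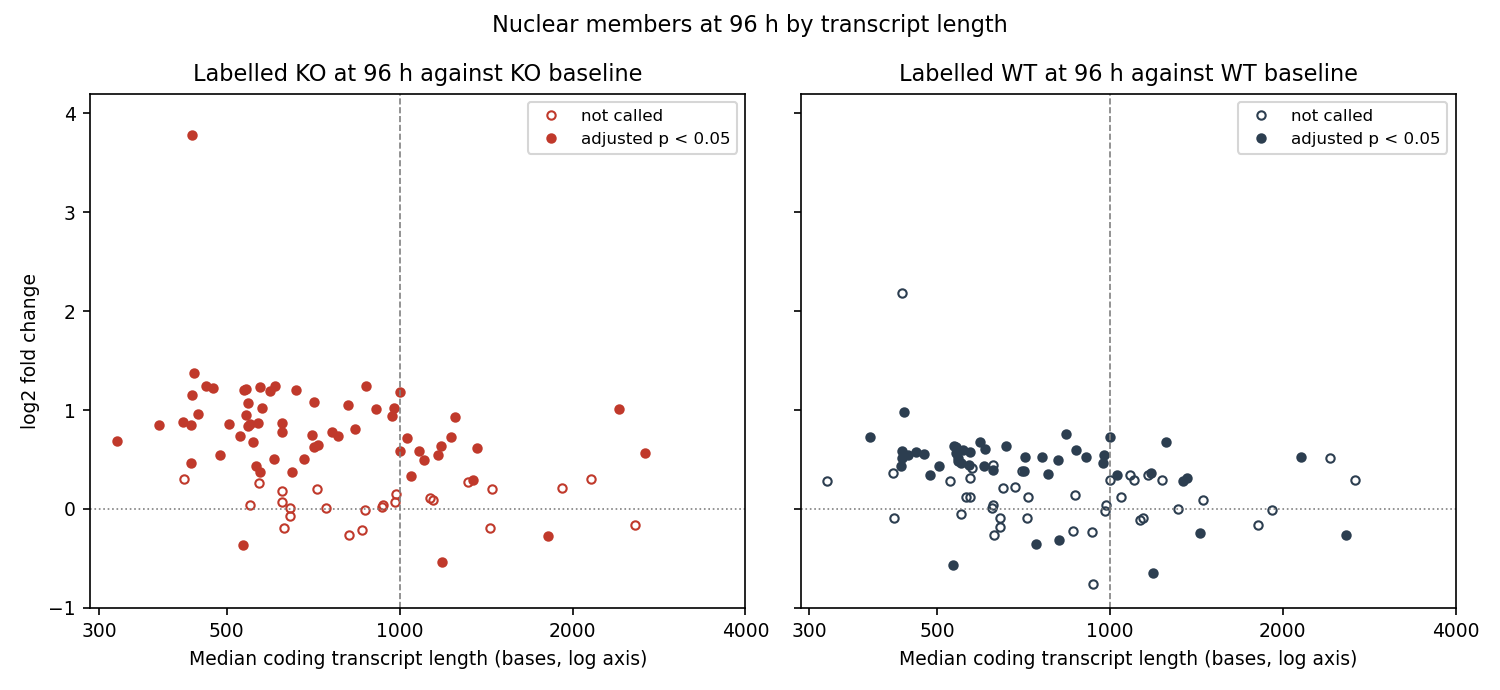
Log2 fold change of nuclear oxidative phosphorylation genes in the libraries labelled 96 h against baseline (vertical) by transcript length in bases (horizontal, log scale), KO label left of WT label. Genes under 1000 bases reach the highest values, with medians of 0.76 (KO) and 0.42 (WT) against 0.42 and 0.29 for longer genes.

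At 7 days few genes of the set were called. In KO livers 1 nuclear and 1 mitochondrial gene were higher and 1 mitochondrial gene was lower (3.06% of all genes higher, 2.5% lower), and in WT livers 2 nuclear and 3 mitochondrial genes were lower (1.31%) and 0 were higher (2.25%). The KO number ran from 0 without KO baseline replicate 2 to 12 without KO 7 days replicate 1, and the WT number was 2 without WT baseline replicate 3 or WT 7 days replicate 2 or 3. Without the 96 h libraries in the fit, 9 genes were called in KO and 8 in WT livers. In limma on log2(FPKM + 1), 4 mitochondrial genes were lower in KO livers at 7 days and none was higher, and scaled by total counts 1 was lower. Ndufaf2 (0.55) and mt-Co2 (0.64) rose in KO livers, and Ndufb8 (-0.38) and Uqcrc1 (-0.35) fell in WT livers.

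At 4 weeks, when the liver has regained its mass, KO livers had 31 nuclear and 3 mitochondrial genes higher than at their own baseline and 1 mitochondrial gene lower (4.29 and 4.28% of all genes), with medians of 0.39 and 0.43. Limma on log2(FPKM + 1) gave 9 nuclear and 2 mitochondrial genes higher and 2 mitochondrial genes lower. WT livers had 0 nuclear genes called (2 at an unadjusted p under 0.05, beside 1962 of all 14090 genes tested) and 2 mitochondrial genes lower (0.738%) and none higher (0.433%), with medians of 0.10 and -0.00. Of the KO genes 12 belong to complex I, 2 are assembly factors, and 0, 3, 5 and 9 belong to complexes II, III, IV and V. The number in KO livers was 53 without the 96 h libraries, 20 when scaled by total counts, and 10 to 20 without any single library, lowest without KO baseline replicate 2. Marker sums also lay apart: in KO livers at 4 weeks against KO livers at baseline, hepatocyte markers were 103764 to 110423 against 87955 to 95590 CPM, and markers of exocrine pancreas and gut (3 of 5 in the table) 100 to 125 against 61.2 to 76.6 CPM. Kupffer cell markers were 93.9 to 130 against 147 to 208 CPM, endothelial markers 78.1 to 83.9 against 141 to 152 CPM and stellate markers 95.4 to 151 against 156 to 257 CPM. Endothelial markers were also lower in WT livers, with 79.3 to 91.9 CPM at 4 weeks against 113 to 136 CPM at baseline. The hepatocyte sums were mostly Alb, which averaged 7.36% of counts in KO livers at 4 weeks and 6.83% at baseline. The part of these markers in the rise was not tested. No gene passed the test that the change at 4 weeks differed between genotypes, with interaction medians of 0.27 and 0.37.

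Uqcrb, a small subunit of complex III, had 130, 125 and 140 CPM in KO livers at 4 weeks against 77.7, 69.6 and 80 CPM at baseline, with no overlap (0.80, adjusted p = 0.00345, edgeR). Ndufa5 (0.70) and Ndufb3 (0.69) of complex I and Atp5k (0.68) of complex V followed. Cox7a2 (0.57), Cox7b (0.56), Cox6b1 (0.53) and Cox6a1 (0.38) of complex IV also rose, as did Atp5g1 (0.42), Atp5g3 (0.39), Uqcrfs1 (0.38), Ndufa10 (0.35) and Ndufaf1 (0.52). mt-Co2 (0.94 ± 0.17), mt-Nd2 (0.68) and mt-Nd4 (0.50) rose among the mitochondrial genes. Within the KO comparison at 4 weeks the rank correlation of fold change with transcript length was -0.457 in the set and -0.316 over all genes, and at 7 days -0.499 and -0.296.

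mt-Nd5 and mt-Nd6, neighbours in the mitochondrial genome, were low at 7 days and 4 weeks, when the other mitochondrial genes apart from mt-Atp8 in WT livers at 7 days were higher or not called. mt-Nd5 had 2896, 2716 and 3572 CPM in KO livers at 4 weeks against 4648, 4949 and 4808 CPM at baseline, and 3841, 3845 and 3400 CPM in WT livers at 4 weeks against 5502, 5823 and 6385 CPM at baseline. At 7 days it had 3810 and 2269 CPM in KO and 3695, 3612 and 2394 CPM in WT livers. The late libraries were all below the baseline of their genotype. mt-Nd5 fell by 0.66 ± 0.20 and 0.65 ± 0.18 in KO livers at 7 days and 4 weeks (adjusted p = 0.04715 and 0.02146, edgeR) and by 0.87 ± 0.18 and 0.68 ± 0.18 in WT livers (adjusted p = 0.004014 and 0.04953, edgeR). Earlier it fell by 0.52 and 0.57 in KO livers at 30 and 48 h and by 0.52, 0.61 and 0.79 in WT livers at 24, 30 and 48 h.

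mt-Nd6 had 1338, 1321 and 1220 CPM in WT livers at 4 weeks and 1546, 1251 and 1215 CPM at 7 days, against 2029, 1754 and 2340 CPM at baseline, all below baseline. It fell in WT livers by 0.69, 0.58, 0.50 and 0.85 at 24, 30, 40 and 48 h, by 0.61 at 7 days (adjusted p = 0.01657, edgeR) and by 0.66 at 4 weeks (adjusted p = 0.02053, edgeR). In KO livers, with 1037, 917 and 1324 CPM at 4 weeks against 1453, 1460 and 1473 CPM at baseline, it was called at no time. The annotated ranges of mt-Nd5 (chrM:11742-13565, plus strand) and mt-Nd6 (chrM:13552-14070, minus strand) overlap at their ends, over 14 bases. As the strand setting of the counting is not given, counts of mt-Nd6 may include reads from the opposite strand. The falls of mt-Nd5 and mt-Nd6 are therefore not shown to be separate. mt-Atp8 also fell in WT livers at 7 days (-0.63, adjusted p = 0.01092, edgeR).

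Several subunits exist as isoforms of other tissues, and most of these were at or near the limit of detection in liver. Cox4i2 (54 counts over all libraries, detected in 31), Cox6a2 (26 counts in 17 libraries) and Cox8b (28 counts in 16 libraries), isoforms known from lung, heart or muscle, did not pass the filter, nor did Ndufs6b (52 counts in 26 libraries) and Cox6c2 (19 counts in 15 libraries), which with Ndufb4c are the 3 genes of the set not annotated as protein coding. Their mean levels were 0.11 FPKM for Cox4i2, 0.0624 for Cox6a2 and 0.152 for Cox8b. Their liver partners Cox6a1, Cox6b1, Cox7a2 and Cox8a averaged 456, 396, 220 and 429 FPKM. Of 5 muscle markers 1 was in the table, near 0. Cox7a1, the heart and muscle isoform of Cox7a2, fell by 1.25 ± 0.44 in WT livers at 24 h and rose by 1.38 and 0.98 under the KO and WT labels at 96 h, where it had 1.35, 1.56 and 2.4 CPM and 1.58, 1.48 and 1.42 CPM. Ndufa4l2, known as a hypoxia-inducible relative of Ndufa4, was not called in any comparison.

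Lists of genes that surround the respiratory chain held called genes in both directions. Of 78 mitochondrial ribosome proteins, which translate the 13 mitochondrial messages, 18, 32, 10 and 22 were higher and 3, 0, 8 and 2 lower in KO livers at 24, 30, 40 and 48 h, where 11.5, 17.0, 17.9 and 19.0% of all genes were higher and 12.2, 16.1, 17.7 and 17.0% lower. In WT livers 5, 3, 9 and 3 were higher and 8, 4, 12 and 11 lower, where 10.5, 9.33, 19.2 and 15.6% of all genes were higher and 11.9, 8.35, 17.3 and 15.4% lower. These shares are the background of the lists that follow too. In KO livers at 30 h Mrpl13 (0.70), Mrpl52 (0.66) and Mrps7 (0.55) were among those that rose. Of 19 genes of the TCA cycle and pyruvate dehydrogenase, 2, 6, 5 and 5 were higher and 4, 5, 6 and 5 lower in KO livers, and 0, 3, 5 and 3 higher and 8, 6, 6 and 8 lower in WT livers at these times. Of 36 assembly factors outside the rule, 3, 7, 1 and 5 were higher and 0, 0, 8 and 4 lower in KO livers, and 0, 1, 2 and 1 higher and 1, 2, 7 and 9 lower in WT livers.

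At 96 h 43 of the 78 mitochondrial ribosome proteins were higher and 7 lower under the KO label, and 32 were higher and 9 lower under the WT label, with Mrps28 (1.07) and Mrpl42 (1.00) under the KO label as examples. Of all genes 21.9% were higher and 22.1% lower under the KO label, and 12.8 and 14.6% under the WT label. At 4 weeks 24 were higher and 0 lower in KO livers, and 0 were called in WT livers. Over all genes 4.29% were higher in KO livers at 4 weeks. Of 18 genes of mitochondrial DNA replication and transcription, 9 were higher and 5 lower under the KO label and 6 higher and 4 lower under the WT label at 96 h.

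Cycs, the electron carrier cytochrome c between complexes III and IV, rose by 0.73, 0.73, 0.80 and 0.66 in KO livers at 24, 30, 40 and 48 h and by 0.69 in WT livers at 40 h. In WT livers at 24, 30 and 48 h its fold changes were 0.36, 0.34 and 0.35 and were not called. Cyc1, the cytochrome c1 subunit of complex III whose symbol lies outside the rule, fell by 0.59 and 0.46 in WT livers at 24 and 48 h and rose by 0.34 under the KO label at 96 h, less than the shift of -0.39 in all genes under total counts there. Gabpa, the ETS factor GABP alpha, fell by 0.62, 0.74 and 0.36 in KO livers at 24, 30 and 48 h and by 0.61 and 0.58 in WT livers at 24 and 30 h. Ppargc1a, a coactivator of mitochondrial gene expression, rose by 1.16 in KO and 1.19 in WT livers at 40 h. Nrf1 rose by 0.50 in KO livers at 48 h and by 0.42 and 0.53 in WT livers at 40 and 48 h. Tfam, which packages and transcribes mitochondrial DNA, rose by 0.46 in KO livers at 30 h and by 0.47 in WT livers at 40 h, and Polrmt, the mitochondrial RNA polymerase, fell by 0.66 and 0.45 under the KO and WT labels at 96 h. Esrra was not called in any comparison.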

How the data were processed

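Poly(A) RNA of mouse liver was sequenced as 100-base paired ends from TruSeq libraries, per the labels' protocols. The main table holds raw gene counts, whole numbers that the authors deposited without normalization. FPKM values are a second deposited table, made by the authors with 46472 gene entries, and served for levels between genes and for an alternative test. The submitters' processing notes name TopHat2 2.1.0, Cufflinks 2.2.1, FastQC 0.11.5, Trimmomatic, HTSeq, DESeq2 and the build mm10. Whether counting used strand, and which annotation, is not given in the sources used here.

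Symbols were matched by Ensembl ID (103 IDs had none). filterByExpr kept 14090 genes, holding at least 99.944% of counts of every library, and TMM factors ran from 0.661 to 1.22. The test was edgeR 4.0.16 (glmQLFit and glmQLFTest, robust, R 4.3.3) with a mean for each of 16 groups, no covariates and 29 residual degrees of freedom. SE is the fold change over the root of F, and p-values were adjusted over all genes. P-values measure the spread between these libraries, which may be technical. Shares of counts use unscaled totals. Genes with copies were found by exact 100-base windows of the GENCODE transcripts of GRCm38, the build of the promoters too. The steps were tested on simulated counts. Alternatives were DESeq2 1.42.0, limma 3.58.1 on log2(FPKM + 1) or with a pseudocount of 0.1, other scalings, no filter, fits within a condition, a replicate block, and leaving out libraries.

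Samples were grouped by title. Libraries of a group differed beyond sampling noise. Named genes are the mitochondrial genes, chosen core subunits and isoforms, up to 5 called genes in each direction with the largest fold change per comparison, the 5 smallest p-values of the joint test, and the 3 highest and 3 lowest nuclear genes by FPKM. Other genes are named as examples chosen after their values were seen. The members and lists were chosen with earlier results of these data known.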

Additional observations from a re-analysis of the deposited data

Results flagged for a closer look

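mt-Co2, the gene for subunit 2 of complex IV, changed differently under the KO and WT labels at 96 h, by a test of that difference. The interaction was 0.96 ± 0.24 on the log2 scale (adjusted p = 0.02479, edgeR), with fold changes against baseline of 1.47 under the KO label and 0.51 under the WT label. The call was lost in each of the 3 fits on FPKM, where 0 genes of the set passed, and without KO baseline replicate 1 or 2, WT baseline replicate 1, KO 96 h replicate 1 or 2, or WT 96 h replicate 3. All 3 libraries of each label at 96 h were above their baseline. The libraries labelled WT at 96 h went against that label in Bglap3 and Rhox5, mt-Co2 shares its sequence with Gm28661, and mt-Co2 had 92 to 369 counts per library. The part of these in the difference was not tested.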

How the results depend on the processing

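Over the called genes of all comparisons, 7 of 4052 fold changes under settings other than leaving out a library changed sign, none of them called: Cox6a1, Ndufa9, Ndufs1 and Ndufs3 under the KO label at 96 h with total counts, and mt-Co1 under the WT label at 96 h in each of the 3 fits on FPKM. Of 2481 without single libraries, 0 did. Medians changed sign under total counts for KO against WT at 48 h (mitochondrial) and at 96 h (both sets), for KO at 48 h (nuclear) and for the nuclear interaction at 96 h (-0.04), and that of mitochondrial genes in WT livers at 4 weeks, near 0, with DESeq2. Numbers of genes called that moved by over 1.5 times were as follows. DESeq2 gave 7 (KO 7 days) and 4 (interaction at 96 h). limma on log2(FPKM + 1) gave 13 (KO 4 weeks), 15, 19 and 26 (WT 30, 40 and 48 h), 3 (WT 7 days), 1 (WT 4 weeks) and 0 (interaction at 96 h), and with a pseudocount of 0.1 13, 15, 19, 25, 1 and 0 for the same without WT 7 days. Without a filter on FPKM the values were 0 and 1 (KO against WT at 96 h and 7 days), 12 and 11 (KO 48 h and 4 weeks), 32, 15, 17, 20 and 0 (WT 24, 30, 40 and 48 h and 4 weeks), and 0 and 1 (interaction at 96 h and 7 days), the 1 at 7 days being Ndufs6b, which did not pass the filter on counts. RLE factors gave 1 (WT 4 weeks). Leaving out the 96 h libraries gave 27, 9 and 53 (KO 24 h, 7 days and 4 weeks) and 8 and 1 (WT 7 days and 4 weeks). No filter on counts gave 1 (KO against WT at 96 h), 1 (KO 7 days), 3 and 1 (WT 7 days and 4 weeks). Libraries of 96 h alone gave 0 for KO against WT. Total counts, chosen after seeing the data, gave 14 (KO against WT at 96 h), 27, 1 and 20 (KO 24 h, 7 days and 4 weeks) and 34, 3 and 1 (WT 48 h, 7 days and 4 weeks), and medians of -0.13 (nuclear) and -0.021 (mitochondrial) for KO against WT at 96 h, 0.21 and 0.65 (KO 96 h), 0.23 and 0.27 (KO 4 weeks), -0.15 (nuclear, WT 40 h), and -0.25 and -0.34 (WT 48 h). The mitochondrial share of counts without the 10 most counted nuclear genes was 6.59, 5.31, 6.04, 6.29, 6.35, 10.4, 6.57 and 7.16% in KO and 7.64, 5.68, 5.53, 6.43, 6.1, 10.1, 6.35 and 7.23% in WT livers from baseline to 4 weeks. The cause of these moves was not tested, except that the last leaves counts out of the total.

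Replicate numbers of KO and WT were not shown to pair the samples: deviations of same-numbered libraries from their group means correlated at -0.306 to 0.306 over 21 pairs, 8 of them over 0.1, among them both pairs at 48 h (0.251 and 0.233). No condition with 3 pairs had all of them over 0.1. Same-numbered libraries of 40 h and baseline, whose names share the time 40 h, correlated at -0.01, -0.064 and 0.159 in KO. In WT livers these values were 0.157, 0.09 and 0.102. With the replicate number as a block, 1 gene was called for KO against WT at 96 h and 1 in WT livers at 4 weeks, and no other count moved by over 1.5 times (15, 16, 13, 22, 76, 2 and 33 in KO and 53, 23, 38, 55, 50 and 4 in WT livers at the other times in order). Without single libraries the counts in KO livers ran from 11 to 14, 11 to 15, 11 to 13, 13 to 23, 66 to 80, 0 to 12 and 10 to 20 at the 7 times in order, and in WT livers from 29 to 59, 8 to 27, 28 to 50, 30 to 67, 18 to 64, 2 to 5 and 0 to 1. KO against WT at 96 h ran from 1 to 18 and its interaction from 0 to 21, and the other tests stayed at 0. Of the values of single named genes, 93 kept their side of the threshold with DESeq2 and 4 lost it, and without single libraries 440 kept it and 126 lost it. Genes under 10 counts per library, such as Cox6b2 at baseline, and the genes with copies are limited by depth.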
